A study of Mus musculus with 8 samples.

Results

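The mitochondrial protein import machinery is the set of proteins that carries precursors made in the cytosol into the organelle. Its genes were taken by symbol from the deposited table: every Timm and Tomm gene with a number in its name, Timmdc1, and Pam16, Dnajc19, Dnajc15, Grpel1, Grpel2, Samm50, Mtx1, Mtx2, Chchd4, Gfer, Pmpca and Pmpcb. The rule found 38 of the 22173 genes in the table, and 36 of the 38 had enough reads to be tested, among 12963 genes tested in all. Tomm20l, a Tomm20-like gene, had 0 counts in all libraries. Timm8a2, a copy of the small chaperone gene Timm8a1, had 5 counts in liraglutide replicate 1, 1 count in model replicates 3 and 4, and none elsewhere, so neither was tested.

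Skeletal muscle came from mice of the inbred C57BL/6 strain with diet-induced obesity (DIO), 24 weeks of age when divided into groups of 8. For 9 weeks, liraglutide mice had 0.2 mg/kg of liraglutide, a GLP-1 receptor agonist, injected under the skin each day, and model mice were given normal saline. RNA-seq libraries were made from polyadenylated RNA of 4 mice per group, each library with its own animal code, and no lean group is among them. Both groups therefore share the diet-induced obesity, and the labels do not say which muscle was taken.

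Most mitochondrial proteins are encoded in the nucleus. They enter through the TOM complex of the outer membrane and are then sorted. Presequence proteins pass through TIM23 of the inner membrane and are pulled into the matrix by the PAM motor, where the processing peptidase removes the presequence. Carrier proteins are escorted by the small TIM chaperones to TIM22, β-barrel proteins are inserted into the outer membrane by SAM, and many small cysteine-rich proteins are trapped in the intermembrane space by a disulfide relay. Skeletal muscle is rich in mitochondria and depends on this supply.

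Library totals ran from 17133476 to 18244579 counts with liraglutide and from 15033631 to 16622716 counts without it. Markers of muscle fibres summed to 174391 to 181862 counts scaled to the library total (CPM) with liraglutide and 168720 to 173926 in the model group, with 5 of 10 called higher, so the tissue label held in every library. White adipocyte markers ran the other way, at 949 to 1391 CPM against 1575 to 2473, with 8 of 10 called lower. Fibroblast markers were at 746 to 1201 CPM against 1240 to 1274, with 2 of 8 called lower. Markers of epididymis were at 33.4 to 53.6 CPM in the 4 model libraries and at 146 CPM in liraglutide replicate 2, but at 0.452 to 2.06 CPM in the other liraglutide libraries, with 6 of 7 tested called lower. Brown adipocyte markers were at 151 to 155 CPM against 133 to 149, with 1 of 4 tested called higher. That list held Ucp1, Cidea, Elovl3, Otop1, Ppara and Cox7a1. The part of each in the sum is not given here, so the sum is not read as an amount of brown fat. Tendon markers were at 237 to 553 CPM against 164 to 273, with 2 of 5 called higher. The other 7 of the 13 marker lists, for slow fibre, macrophage, neutrophil, endothelial, erythroid, Schwann and smooth muscle cells, had no call. No marker was at 0 in all libraries, and the part of these markers in the changes of the import genes was not tested. In bulk muscle, a change in the share of muscle cells and a change in RNA per cell cannot be told apart.

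The import genes as a group were higher with liraglutide by a small amount. Of the 36 tested, 8 rose (edgeR quasi-likelihood test, Benjamini-Hochberg adjusted p under 0.05 over all genes tested), which is 22.2%, where 5.45% of all tested genes rose. They were Timm10, Tomm5, Timm8b, Timm13, Dnajc19, Tomm40, Timm50 and Pmpca, with fitted changes of 1.10- to 1.33-fold. None fell, where 4.83% of all tested genes did. The fitted log2 fold change was positive in 33 of 36 import genes, or 91.7%, against 47.8% of all tested genes, and in 27 of 36 when only library totals were used for scaling. Import genes are short, with a median length of 1575 bases. Among all tested genes no longer than that, 1261 of 1720 were positive and 19.4% rose. Among the 18 import genes no longer than that, 17 were positive and 27.8% rose. TMM, the scaling used here, adds 0.076 to the log2 difference that FPKM alone would give, so a gene with equal FPKM in both groups has a small positive fitted value. The median fitted log2 fold change of the 36 import genes was 0.17, or 1.12-fold, against -0.012 over all genes tested. An unadjusted p under 0.05 on the higher side was reached by 20 of 36, or 55.6%, against 13.1% of all genes, and by none on the lower side. Among genes of at most 1575 bases, it was reached on the higher side by 10 of 18 import genes and 587 of all 1720.

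Scaled CPM values of the 4 liraglutide libraries lay wholly above those of the 4 model libraries in 16 of 36 import genes, or 44.4%, where this held for 9.58% of all tested genes. The reverse held for none of the 36, against 8.71% of all genes. All 8 called genes were among the 16, and their FPKM values (fragments per unit of gene length, relative to the library total) did not overlap either. The sum over the 36 genes was 1596 to 1711 scaled CPM with liraglutide and 1462 to 1560 in the model group. Of the 36 genes, 28, 31, 31 and 20 were above their own mean in liraglutide replicates 1 to 4, and 1, 9, 11 and 8 in model replicates 1 to 4. Liraglutide replicate 4 was thus nearest to the model group and model replicate 1 the lowest library.

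**Figure D1:**
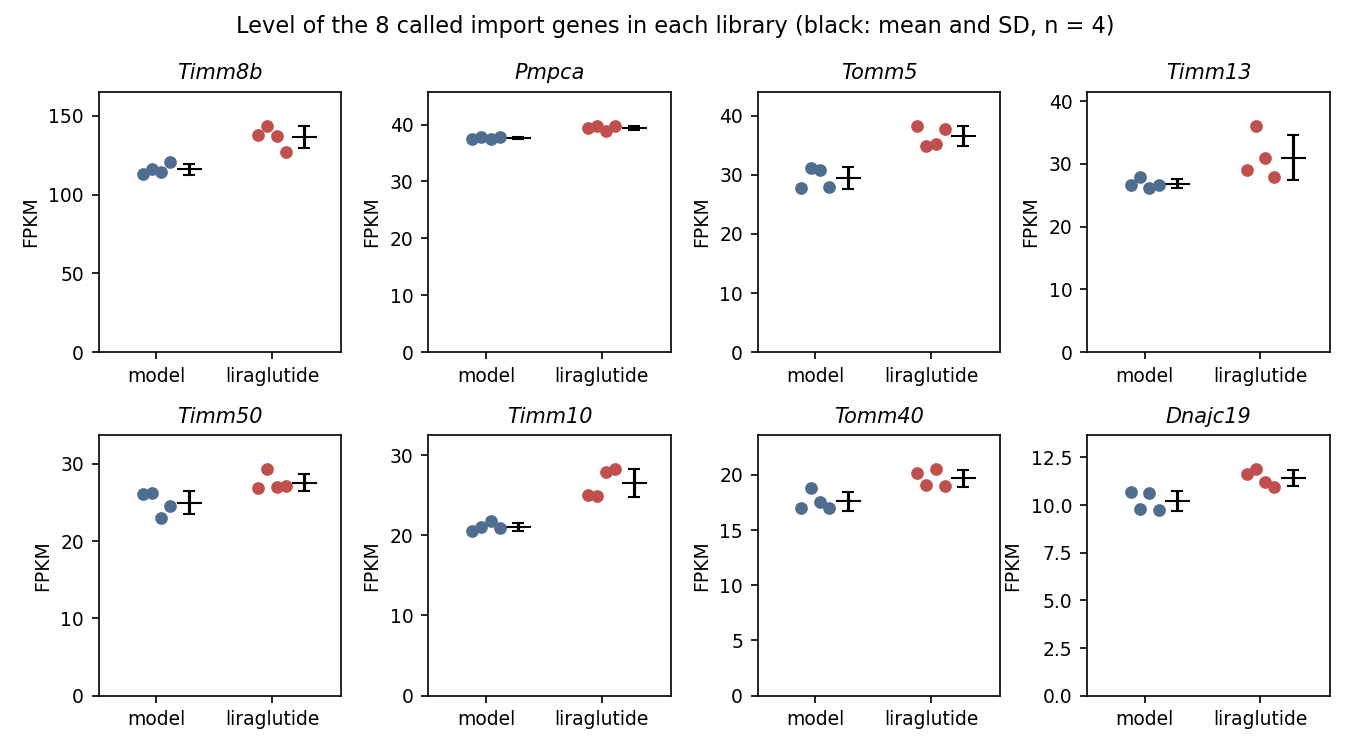
FPKM of the 8 import genes that rose, for each of the 4 liraglutide and 4 model libraries (points), with group means and SD. In all 8 panels the lowest liraglutide point lies above the highest model point, and the gap is narrowest in Timm13 and Tomm40.

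Of the 8 genes that rose, 4 held an exact copy of a motif searched for in their promoters, and these promoters are shown because they allow the sequence upstream of called genes to be read beside their values. Import genes that did not rise held motifs too, as named below. The share of all tested genes with any of the motifs is not given here, so the 4 of 8 ties no motif to the rise. The windows run from 250 bases before to 50 after the transcription start, from RefSeq on mouse GRCm38.p6, with the motif in capitals, on the strand of the gene. They are Timm10 at chr2:84826771-84827070 on the plus strand, Timm13 at chr10:80900920-80901219 on the minus strand, Timm50 at chr7:28311997-28312296 on the minus strand and Timm8b at chr9:50603651-50603950 on the plus strand. The capitals mark the ETS motif CCGGAAGT in Timm10, the NRF1 core GCGCATGC, read on the other strand, in Timm13, the YY1 motif AAGATGGC in Timm50 and the ERR motif CAAGGTCA in Timm8b.
Timm10: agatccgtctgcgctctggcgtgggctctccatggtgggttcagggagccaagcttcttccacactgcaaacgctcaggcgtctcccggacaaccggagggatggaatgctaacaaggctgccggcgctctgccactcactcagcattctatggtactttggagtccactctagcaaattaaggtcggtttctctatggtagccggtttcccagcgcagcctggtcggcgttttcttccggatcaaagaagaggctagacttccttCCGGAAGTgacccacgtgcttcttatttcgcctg
Timm13: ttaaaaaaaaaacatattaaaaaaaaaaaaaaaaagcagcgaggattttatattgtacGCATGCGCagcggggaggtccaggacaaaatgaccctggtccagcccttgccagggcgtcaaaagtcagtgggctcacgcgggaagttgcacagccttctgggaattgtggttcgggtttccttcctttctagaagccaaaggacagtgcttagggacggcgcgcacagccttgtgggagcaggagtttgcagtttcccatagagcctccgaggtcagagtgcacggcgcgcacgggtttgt
Timm50: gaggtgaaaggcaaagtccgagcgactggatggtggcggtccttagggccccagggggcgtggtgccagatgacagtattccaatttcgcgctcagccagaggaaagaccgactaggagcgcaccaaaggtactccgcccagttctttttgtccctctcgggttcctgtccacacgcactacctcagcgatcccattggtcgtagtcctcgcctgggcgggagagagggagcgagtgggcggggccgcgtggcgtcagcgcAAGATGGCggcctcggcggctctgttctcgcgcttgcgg
Timm8b: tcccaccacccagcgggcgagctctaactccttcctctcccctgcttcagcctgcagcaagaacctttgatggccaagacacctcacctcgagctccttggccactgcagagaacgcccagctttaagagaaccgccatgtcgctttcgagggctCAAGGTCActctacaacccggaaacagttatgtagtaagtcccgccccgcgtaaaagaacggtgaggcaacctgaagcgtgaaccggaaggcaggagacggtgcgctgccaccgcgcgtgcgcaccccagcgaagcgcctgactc
With the first transcribed base as 1, the first base of the motif is at 17 in Timm10, -192 in Timm13, 12 in Timm50 and -95 in Timm8b.

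Promoters were matched for 34 of the 38 import genes, of which 32 had been tested for expression, including all 8 that rose. Both strands were searched for 5 motifs of 8 letters each. The ETS motif, bound by GABPA among other factors, was in 8 of the 32, or 25%, against 8.62% of all tested genes with a promoter. Its holders were Mtx2, Pmpcb, Timm10, Timm10b, Timm23, Timm29, Timmdc1 and Tomm70a, of which only Timm10 rose. The NRF1 core was in 6.25% against 5.75%, the YY1 motif in 6.25% against 5.10%, the ERR motif in 3.12% against 1.29%, and the CREB motif TGACGTCA in none against 3.39%. Besides Timm13, Grpel1 held the NRF1 core, and besides Timm50, Mtx1 held the YY1 motif. Neither Grpel1 nor Mtx1 rose. A match is a run of letters and not a measured site.

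The entry gate of the outer membrane gave 2 calls among 9 tested genes, or 22.2%, where 5.45% of all tested genes rose. The median log2 fold change of the 9 was 0.18 and their median length 1666 bases. Of all tested genes of 1390 to 1951 bases, 9.96% rose. Tomm5, a small subunit of the TOM complex, was at 38.3, 34.9, 35.3 and 37.7 FPKM in liraglutide replicates 1 to 4 and at 27.7, 31.2, 30.9 and 28.02 FPKM in model replicates 1 to 4. The groups were well apart, since the lowest treated library exceeded the highest model library. Tomm5 rose by 0.39 on the log2 scale (SE 0.0676, 1.31-fold, edgeR adjusted p = 0.00824). Tomm40, the channel through which nearly all precursors pass, was at 20.1, 19.05, 20.5 and 19.02 FPKM with liraglutide and 17.01, 18.8, 17.6 and 16.97 FPKM in the model group. Here model replicate 2 came close to the lowest treated libraries without overlap. Tomm40 rose by 0.24 (SE 0.0607, 1.18-fold, edgeR adjusted p = 0.0371).

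The 3 TOM receptors, which bind precursors before they reach the channel, did not pass the test. Tomm20, the receptor for presequences, was at 15.3, 15.1, 16.2 and 16.3 FPKM with liraglutide and 14.2, 14.5, 14.7 and 15.1 FPKM in the model group, a log2 difference of 0.18 (SE 0.0513, edgeR adjusted p = 0.0562). Its groups touched on FPKM but not on scaled CPM. Tomm22, the central receptor, was at 26.1, 32.5, 29.97 and 28.3 FPKM against 25.5, 30.1, 28.4 and 28.7 FPKM, and the groups overlapped (log2 difference 0.13, SE 0.0797, edgeR adjusted p = 0.341). Tomm70a, which encodes TOM70, the receptor for carrier precursors and a docking site for cytosolic chaperones, was at 18.6, 18.05, 19.99 and 18.1 FPKM against 19.6, 20.99, 20.6 and 22.02 FPKM. It was the 1 TOM gene with a fitted value below 0, at -0.077 (SE 0.0599, edgeR adjusted p = 0.451), with liraglutide replicate 3 inside the range of the model libraries. The other TOM genes, Tomm6, Tomm7, the Tomm40 relative Tomm40l and the cytosolic Tomm34, had log2 differences of 0.097 to 0.21 and adjusted p of 0.0795 to 0.709.

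The small TIM chaperones of the intermembrane space shield hydrophobic precursors between TOM and the inner membrane, and 3 of the 6 tested rose, with a median log2 fold change of 0.27. Of all tested genes 5.45% rose. The 6 are short, with a median length of 1178.5 bases. Among all tested genes of 206 to 1389 bases, 21.9% rose and the median log2 fold change was 0.158. Timm10, which forms a ring-shaped complex with Timm9, was at 25.1, 24.9, 27.8 and 28.2 FPKM with liraglutide and 20.6, 21.1, 21.8 and 20.96 FPKM in the model group. It had the highest fitted change of all import genes, 0.41 (SE 0.0737, 1.33-fold, edgeR adjusted p = 0.00988), and a wide gap between groups. Its partner Timm9 was at 6.67, 7.55, 7.94 and 8.66 FPKM against 7.30, 7.70, 8.57 and 8.29 FPKM. The Timm9 groups overlapped fully (log2 difference 0.027, edgeR adjusted p = 0.904).

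Timm8b and Timm13 both rose. Timm8b, a partner of Timm13, was at 138, 144, 137 and 127 FPKM with liraglutide and 113, 116, 114 and 120 FPKM in the model group, and rose by 0.31 (SE 0.0527, 1.24-fold, edgeR adjusted p = 0.00768). It was the most abundant import transcript per length in both groups. Timm13 was at 29.1, 36.1, 31.01 and 27.97 FPKM against 26.6, 27.9, 26.2 and 26.7 FPKM, and rose by 0.28 (SE 0.077, 1.22-fold, edgeR adjusted p = 0.0456). Liraglutide replicate 2 stood highest for Timm13, and liraglutide replicate 4 was just above the top model library. Timm8a1, whose human counterpart is mutated in a deafness-dystonia syndrome, was the least abundant tested import gene at 3.09 ± 0.566 FPKM (SD, n = 4) against 2.96 ± 0.261, and did not pass (log2 difference 0.14, edgeR adjusted p = 0.648). Timm10b, which docks the chaperones at TIM22, was at 10.2 ± 1.58 FPKM against 8.99 ± 0.859 (log2 difference 0.26, edgeR adjusted p = 0.208).

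**Figure D2:**
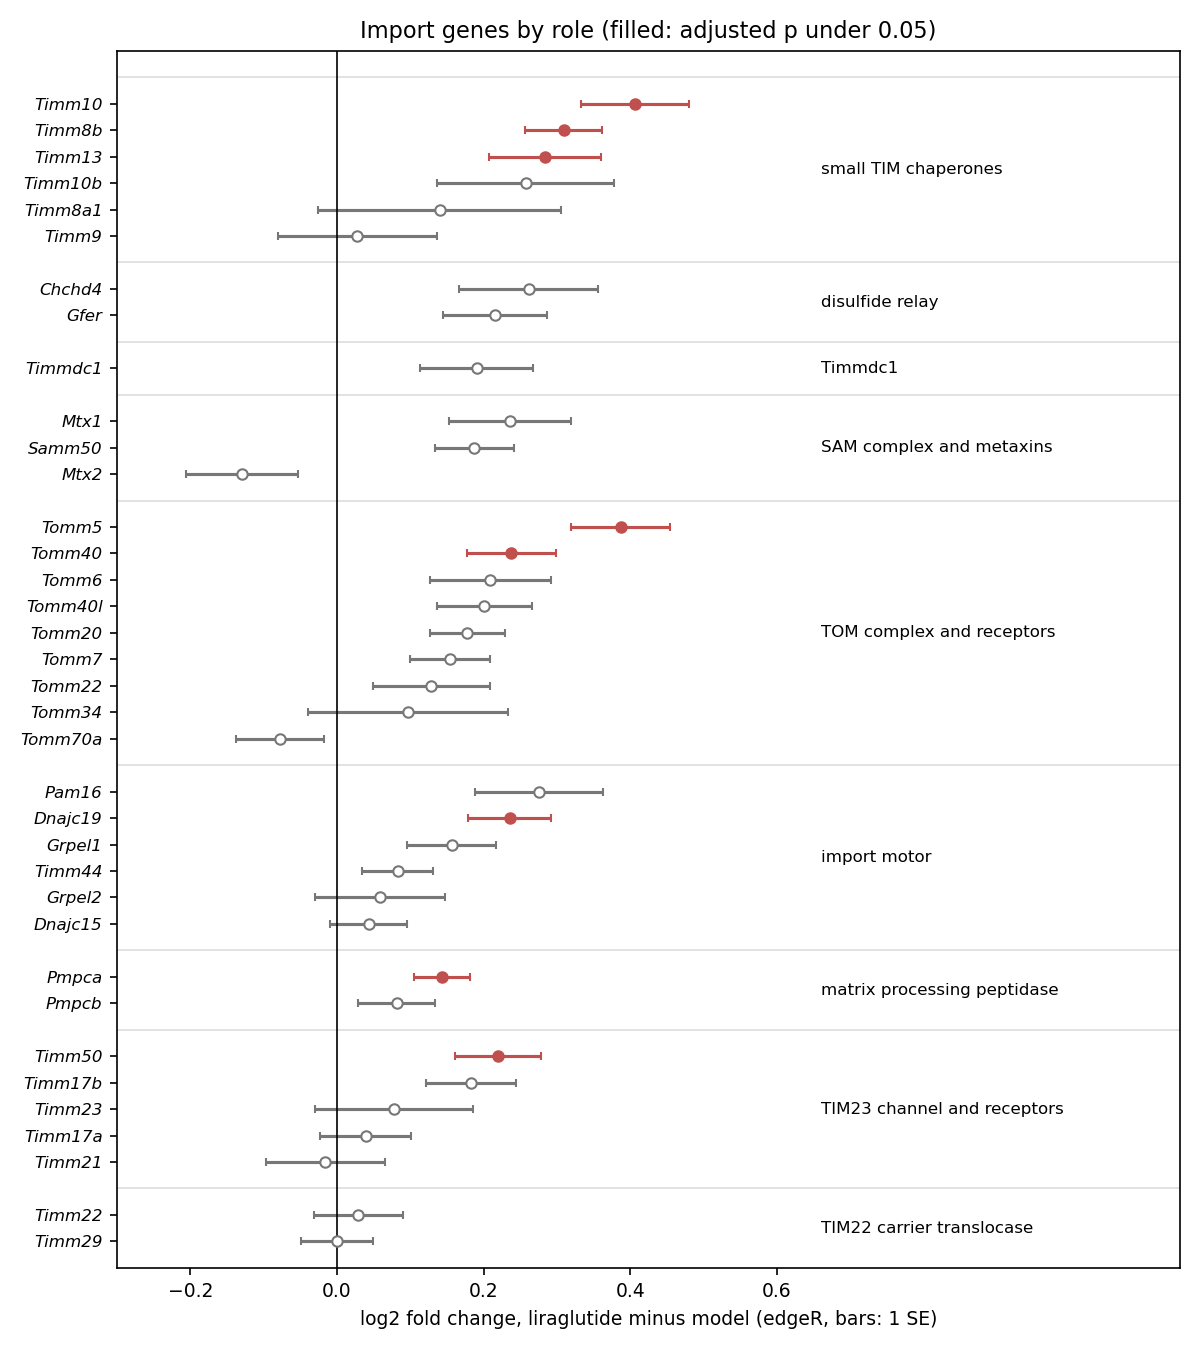
Fitted log2 fold change on the x axis, liraglutide minus model, for the 36 tested import genes (points, with bars of 1 SE), grouped by role; filled points passed the test. The small TIM chaperone Timm10 is highest at 0.41, followed by Tomm5 of the TOM complex at 0.39, while the small TIM chaperone Timm9 is at 0.027. Mtx2, Tomm70a and Timm21, 3 genes in all, lie below 0.

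At the inner membrane, 1 of the 5 tested TIM23 genes rose, or 20%, where 5.45% of all tested genes rose. The median length of the 5 was 1179 bases, and 21.9% of all tested genes of 206 to 1389 bases rose. Timm50, the receptor that takes presequences from TOM, was at 26.9, 29.3, 26.99 and 27.2 FPKM with liraglutide and 26.1, 26.2, 23.1 and 24.5 FPKM in the model group. The gap between groups was small next to the spread within the model group, and Timm50 rose by 0.22 (SE 0.0585, 1.16-fold, edgeR adjusted p = 0.0432). Timm23, the channel subunit, was at 90.3, 94.2, 92.6 and 82.98 FPKM against 77.9, 79.5, 111 and 90.7 FPKM. Model replicate 3 was the highest of all 8 libraries for Timm23, and the group means were 90.0 ± 4.97 and 89.9 ± 15.5 FPKM (SD, n = 4; log2 difference 0.077, SE 0.108, edgeR adjusted p = 0.705).

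The channel's other subunit exists in 2 forms. Timm17a was at 77.1, 72.4, 76.5 and 67.1 FPKM with liraglutide and 71.2, 74.1, 76.2 and 79.3 FPKM in the model group, with overlapping groups (log2 difference 0.039, SE 0.0627, edgeR adjusted p = 0.746). Timm17b was at 11.5, 10.8, 10.7 and 11.3 FPKM against 10.6, 9.87, 9.85 and 10.8 FPKM, where the groups overlapped on FPKM but not on scaled CPM (log2 difference 0.18, SE 0.0612, edgeR adjusted p = 0.0886). Timm17a was thus 6.96 times as abundant per length as Timm17b. Timm21, which couples TIM23 to the respiratory chain, had a log2 difference of -0.016 (edgeR adjusted p = 0.925). In the TIM22 carrier translocase, the channel gene Timm22 was at 7.17, 7.60, 6.92 and 7.12 FPKM against 6.96, 7.84, 7.54 and 7.42 FPKM, with full overlap (log2 difference 0.029, edgeR adjusted p = 0.808). Timm29, a subunit of that complex, was at 27.3 ± 1.63 FPKM against 28.8 ± 0.551 (SD, n = 4) and a fitted difference of 0.00 on the log2 scale (edgeR adjusted p = 1).

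In the import motor, 1 of 6 genes rose, or 16.7%, where 5.45% of all tested genes rose. The median length of the 6 was 2276.5 bases, and 6.87% of all tested genes of 1952 to 2487 bases rose. Dnajc19, the J protein that stimulates the motor's Hsp70 ATPase, was at 11.6, 11.9, 11.2 and 10.95 FPKM with liraglutide and 10.7, 9.79, 10.6 and 9.75 FPKM in the model group. The libraries separated by group, and Dnajc19 rose by 0.24 (SE 0.0565, 1.18-fold, edgeR adjusted p = 0.0289). Its relative Dnajc15 was at 54.5 ± 1.37 FPKM against 55.8 ± 2.10 (SD, n = 4) and did not pass (log2 difference 0.044, edgeR adjusted p = 0.653). Timm44, which tethers the motor to the channel, was at 29.1, 30.7, 29.1 and 28.1 FPKM against 28.5, 29.8, 29.7 and 28.6 FPKM, with interleaved libraries (log2 difference 0.083, edgeR adjusted p = 0.308). Pam16, the J-like partner of Dnajc19, was at 34.6 ± 1.91 FPKM against 30.1 ± 3.25 and narrowly missed the threshold (log2 difference 0.28, edgeR adjusted p = 0.074). The nucleotide exchange factors Grpel1 and Grpel2 had log2 differences of 0.16 and 0.059 (edgeR adjusted p = 0.134 and 0.727).

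None of the 3 genes of the SAM machinery passed the test. Samm50, the β-barrel insertase, was at 49.7, 53.3, 48.3 and 45.3 FPKM with liraglutide and 44.3, 45.7, 44.2 and 47.8 FPKM in the model group. Model replicates 2 and 4 exceeded liraglutide replicate 4 on FPKM, while scaled CPM did not overlap, and the log2 difference was 0.19 (SE 0.0543, edgeR adjusted p = 0.0568). The metaxins Mtx1 and Mtx2, cytosolic-face partners of Samm50, had opposite signs, with Mtx1 at 10.1 ± 0.692 FPKM against 9.02 ± 0.453 (log2 difference 0.24, edgeR adjusted p = 0.103) and Mtx2 at 16.5 ± 1.52 FPKM against 19.1 ± 1.12 (log2 difference -0.13, SE 0.0758, edgeR adjusted p = 0.311; SD, n = 4). On FPKM every treated library was below the model libraries for Mtx2, while on scaled CPM the groups overlapped. FPKM lacks the 0.076 that TMM adds, and the share of all tested genes wholly below on FPKM is not given here.

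The disulfide relay consists of the oxidoreductase Chchd4, also called MIA40, and the sulfhydryl oxidase Gfer that re-oxidises it. Chchd4 was at 13.5, 13.5, 11.1 and 12.7 FPKM with liraglutide and 11.1, 9.51, 11.7 and 12.2 FPKM in the model group. Liraglutide replicate 3 lay among the model libraries (log2 difference 0.26, SE 0.0945, edgeR adjusted p = 0.112). Gfer was at 17.7, 20.3, 18.8 and 16.9 FPKM against 16.5, 18.1, 16.3 and 15.9 FPKM, with model replicate 2 above 2 treated libraries (log2 difference 0.22, SE 0.0712, edgeR adjusted p = 0.0852).

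The matrix processing peptidase has a catalytic subunit, Pmpcb, and a partner, Pmpca. Pmpca was at 39.3, 39.7, 38.9 and 39.8 FPKM with liraglutide and 37.5, 37.8, 37.4 and 37.8 FPKM in the model group. Its change was the smallest of the 8 that passed, 0.14 (SE 0.0378, 1.10-fold, edgeR adjusted p = 0.0419), with very tight libraries in both groups. Pmpcb was at 51.8, 49.1, 48.4 and 46.3 FPKM against 46.8, 47.8, 50.6 and 49.6 FPKM, and the groups overlapped (log2 difference 0.081, SE 0.0529, edgeR adjusted p = 0.365). Timmdc1, named like a TIM gene but an assembly factor of complex I, was at 11.6 ± 1.07 FPKM against 10.7 ± 0.613 (SD, n = 4; log2 difference 0.19, edgeR adjusted p = 0.147).

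Within a library, the level of a gene can be set against its partner, which removes anything that scales both alike. Ratios of FPKM were compared for 11 pairs of paralogues or partners with an exact two-sided permutation test over libraries, whose smallest p is 0.0286 over 70 assignments. The pairs were chosen after values were seen, so these p-values and any lack of overlap are a description and support no direction independently. The ratio of Timm10 to Timm9 was 3.26 to 3.76 with liraglutide and 2.53 to 2.82 in the model group. The ratio of Mtx1 to Mtx2 was 0.523 to 0.704 against 0.412 to 0.518, and that of Tomm20 to Tomm70a was 0.809 to 0.900 against 0.688 to 0.724. None of these 3 ratios overlapped between groups, and each had the smallest exact p of 0.0286, or 0.105 after Benjamini-Hochberg adjustment over the 11 pairs. The Dnajc19 to Dnajc15 ratio was 0.200 to 0.217 against 0.169 to 0.202, and the Timm17a to Timm17b ratio 5.93 to 7.18 against 6.74 to 7.74 (exact permutation p = 0.0571 and adjusted p = 0.126 for each). No pair passed the adjusted threshold, and the other 6 had exact permutation p of 0.2 to 0.6.

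**Figure D3:**
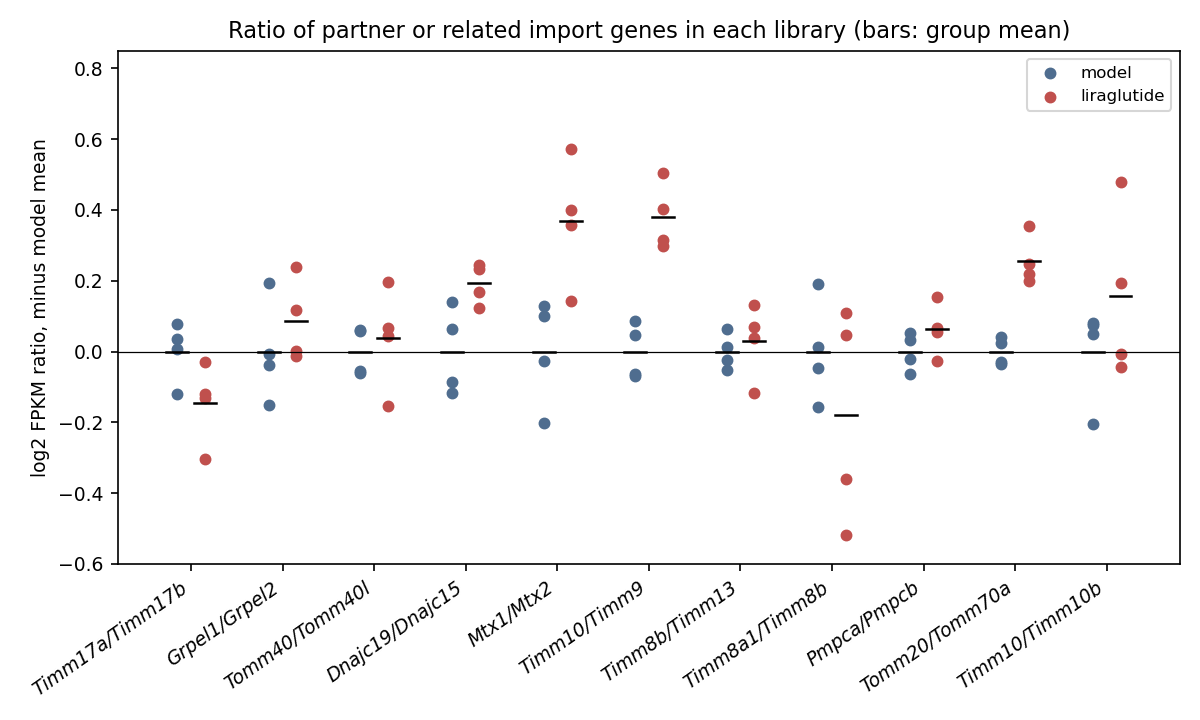
Ratio of FPKM within each library, on a log2 axis and relative to the model mean, for 11 pairs of import genes, with 4 liraglutide and 4 model libraries as points. Timm10 to Timm9, Mtx1 to Mtx2 and Tomm20 to Tomm70a show no overlap between groups, and Timm8b to Timm13 overlaps throughout.

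Per length, import transcripts were well expressed. Their median was 20.4 FPKM over all libraries against 4.04 for all tested genes, and 35 of 36 were above that median. Timm8b led with 126 FPKM, followed by Timm23, Timm17a, Dnajc15, Pmpcb and Samm50. Pmpcb and Samm50, at 48.8 and 47.3 FPKM, differed by less than their own spread.

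Import genes are short, and the treatment difference moved with gene length over all genes. Their median length in the deposited table was 1575 bases, with a range of 527 to 4986, against 3595 bases for all tested genes. Among the 1299 tested genes of 206 to 1389 bases, the shortest of 10 length classes, 21.9% were called higher, and 5 of the 17 import genes in that class were, or 29.4%. The 18 import genes over 1575 bases included 3 called higher, or 16.7%, with a median log2 fold change of 0.15. All tested genes over that length had 3.32% called higher and a median of -0.030. The sets are not matched in length, with medians of 2988.5 bases for the 18 import genes and 4080 for all genes. Of all tested genes of 2488 to 3029 bases, 4.71% were called higher, with a median of 0.019. Over the 36 import genes, the log2 fold change had Pearson r = -0.403 and Spearman rho = -0.373 with log2 length, and r = 0.515 and rho = 0.589 with GC content. Signs were the same over all tested genes, with r = -0.124 and rho = -0.309 for length (12963 genes). For GC content, r was 0.213 and rho 0.372 (12738 genes). These correlations are across genes of the same 8 libraries and are given as a description.

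With a smooth length trend taken out of each library, 7 import genes were called higher, or 19.4% against 5.52% of all genes: Dnajc19, Pmpca, Samm50, Timm10, Timm8b, Tomm20 and Tomm5. With length and GC both taken out, 5 were called, or 13.9% against 2.98%: Dnajc19, Pmpca, Timm8b, Tomm20 and Tomm5. Timm13, Timm50 and Tomm40 were called in neither, and Timm10 reached an adjusted p of 0.0558 with both. The part that length and GC play in the difference between the groups was not tested further.

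**Figure D4:**
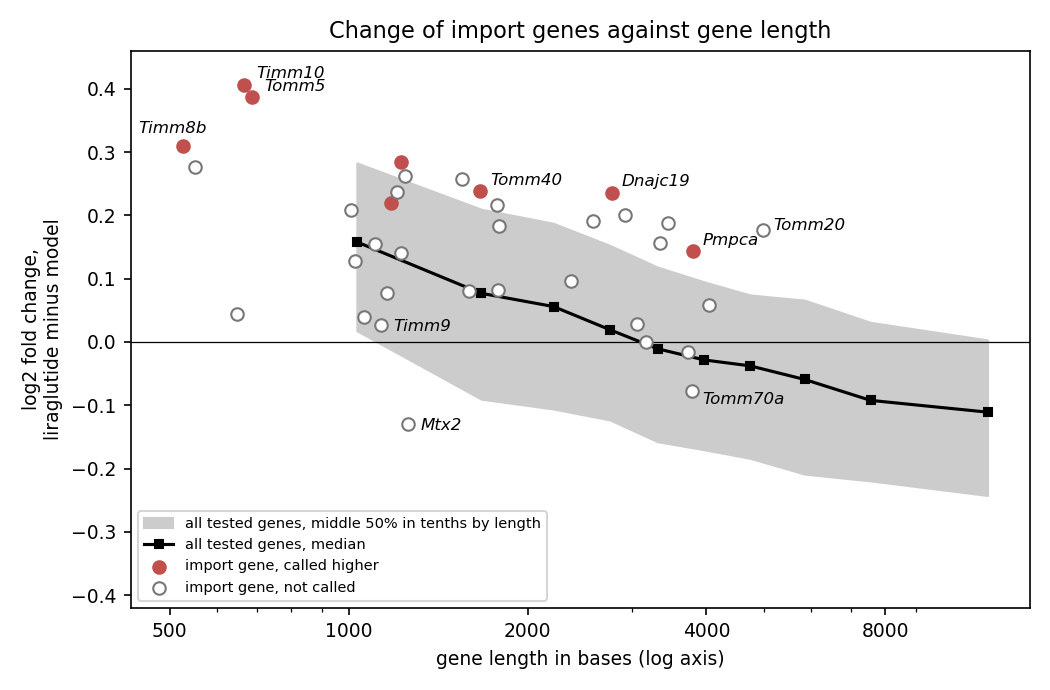
Fitted log2 fold change, liraglutide minus model, against gene length in bases (log axis), for the 36 import genes (points, called genes filled) over the median and quartiles of all 12963 tested genes in 10 length classes. The median of all genes goes from 0.158 in the shortest class to -0.111 in the longest.

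Tomm5, Timm10 and Timm8b kept their calls without any 1 of the 8 libraries, at edgeR adjusted p of at most 0.0353. Dnajc19 kept its call without liraglutide replicate 4 or model replicate 3 and lost it in the other 6 omissions (adjusted p up to 0.0841). Timm13 kept its call without liraglutide replicate 1 or 4 (up to 0.109 in the other 6), and Tomm40 without liraglutide replicate 2 or 4 or model replicate 2 (up to 0.102 in the other 5). Pmpca and Timm50 lost theirs in all 8 omissions, at adjusted p up to 0.101 and 0.113. Without liraglutide replicate 2 and model replicate 3 together, a pair set apart in earlier results of these data, Tomm5, Timm10 and Timm8b were the 3 called. Of the 12964 genes tested in that fit, 365 were called higher. By DESeq2, 10 were called, or 27.8% against 6.33% of all genes, the 8 above with Samm50 and Tomm20.

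**Figure D5:**
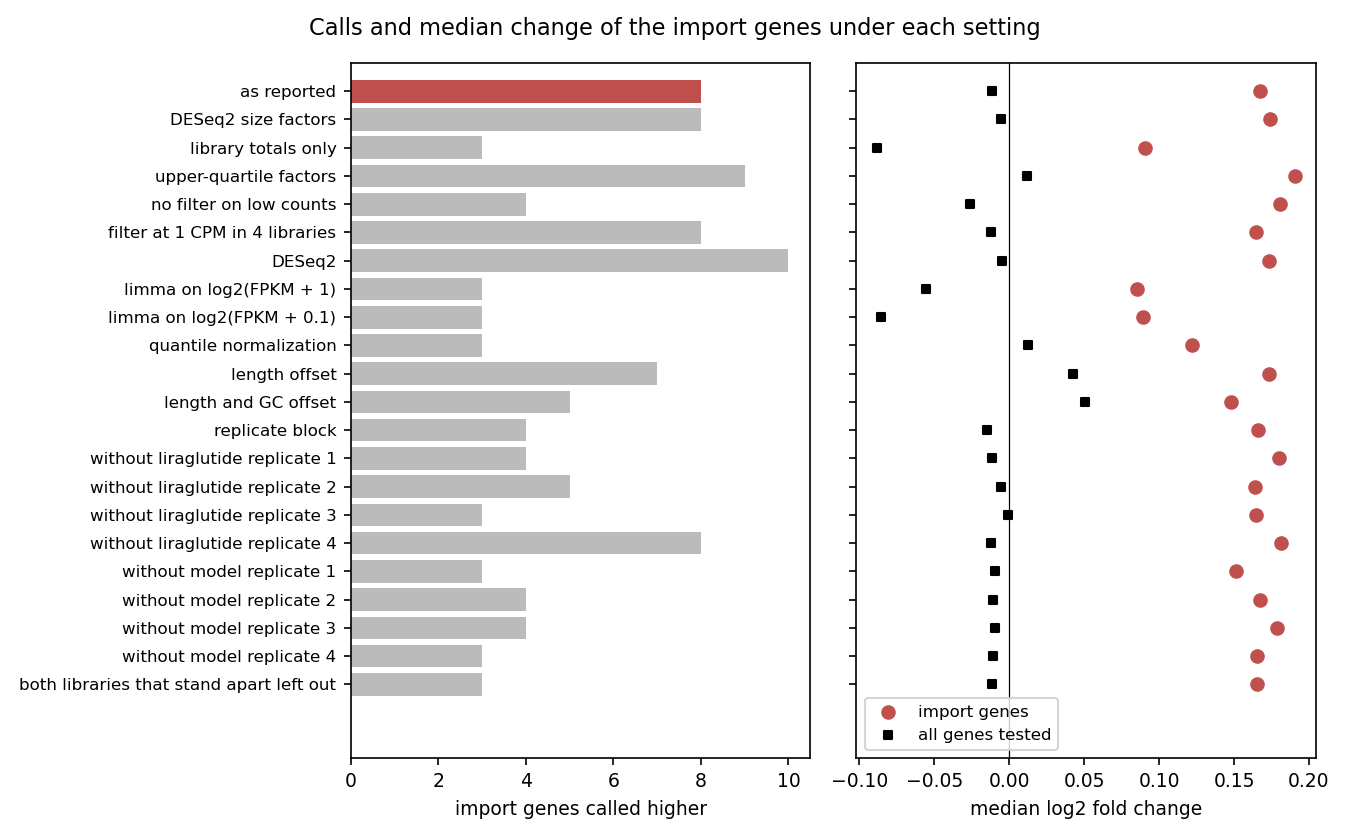
Number of import genes called higher, as bars from 0, and median log2 fold change of the tested import genes, as points, for the fit as reported and 21 alternatives; squares give the median of all genes tested, and the last line leaves out liraglutide replicate 2 and model replicate 3. The count runs from 3 to 10 and the median from 0.085 to 0.19, above the median of all genes in each alternative.

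Some counts are uncertain because exons of another gene lie over the import gene, and the strand setting used in counting is not given in the sources used here. In GENCODE release M21, 15.6% of the exon bases of Timm8b are covered by Nkapd1 on the opposite strand, and 20.4% of Pmpca by Inpp5e on the opposite strand. Among genes not called, the overlap is 76% for Tomm6 with Gm21981 on the same strand and 64.3% for Tomm40l with Nr1i3 on the opposite strand.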

How the data were processed

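The deposited table holds, per the file headers, a raw count and an FPKM value for each gene in 8 libraries. Per the submitters' processing notes, Trimmomatic, HISAT2, Cufflinks, HTSeq and DESeq were used, with no versions given and with the human build GRCh38 although the samples are mouse; the build is not settled and no coordinates were taken from the files. FPKM equalled count over library total and a whole-number gene length, within 0.01 base, for all 17484 genes with counts. The header of 1 FPKM column misspells the group, and the animal code in it gave the sample. All per-sample columns were used, and no libraries were identical.

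Counts were tested with edgeR 4.0.16 in R 4.3.3 (TMM scaling, filterByExpr with a minimum count of 10, quasi-likelihood test over all 12963 genes kept, Benjamini-Hochberg, threshold 0.05), after the code was tested on simulated data. DESeq2 1.42.0, limma 3.58.1 on log2(FPKM + 1) and other alternatives were run. FPKM uses library totals, while fitted changes and scaled CPM use TMM factors, so group means of FPKM and fitted changes differ. Replicates are separate animals, so p-values measure the spread between these mice.

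The genes and lists were chosen with earlier results of these data known. Values by library are given for every called gene and for the core subunit of each machine, and the other genes by range and counts; from each comparison list the called genes were counted and the 3 with the smallest p named, except in the list of cytosolic chaperones and delivery factors, whose calls are not reported here, and the other called genes of the short lists were named after their values were seen. The 11 pairs, the length classes and the mitochondrion list were chosen after values were seen.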

Additional observations from a re-analysis of the deposited data

Results flagged for a closer look

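In 2 of the 72 gene-by-group sets of 4 libraries, 1 library stood far from the other 3 by Dixon's ratio, the gap to the nearest library over the whole range. Chance gives about 1 in 20 such sets. Grpel2, a nucleotide exchange factor, was highest in liraglutide replicate 1, at 18.6 scaled CPM against 17.84 to 17.97 in the other 3 (ratio 0.841). Timm13 was highest in model replicate 2, at 33.4 scaled CPM against 31.4 to 31.8 (ratio 0.830). Without that library the Timm13 log2 difference went from 0.28 to 0.30, while the edgeR adjusted p went from 0.0456 to 0.0796.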

How the results depend on the processing

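No import gene was called lower under any of the 21 alternatives, and their median log2 fold change stayed positive. The count called higher was 3 with library totals only, with limma on log2(FPKM + 1) or log2(FPKM + 0.1), with quantile normalization and without liraglutide replicate 2 and model replicate 3 together. With quantile normalization the 3 were Dnajc19, Timm10 and Tomm5, and in the other settings just named they were Timm10, Timm8b and Tomm5. Timm8b lost its call with quantile normalization, at a log2 difference of 0.16 (limma adjusted p = 0.0529). The count was 4 with no filter on low counts and 5 with the length and GC offset. Leaving out 1 library at a time gave 3 to 8. With the replicate number as a block the count was 4 (Timm10, Timm13, Timm8b and Tomm5) and the median 0.17. Same-numbered libraries deviated together only weakly (r = -0.0275 to 0.149). The highest correlations were between same-numbered libraries, replicates 1 (0.149) and 3 (0.143). Liraglutide replicate 2 correlated best with model replicate 3 (0.14), and liraglutide replicate 4 with model replicate 1 (0.0853). The labels do not say that a shared number marks a pair, so the numbers were not taken as pairs. The median of the import genes was 0.090 with library totals, 0.085 and 0.090 with limma and 0.12 with quantile normalization. TMM factors of 0.954 to 0.988 (liraglutide) and 1.02 to 1.03 (model) add 0.076 to each difference, and with library totals the median of all genes was -0.088. Over all genes, 707 were called higher and 626 lower. Library totals gave 338 and 1241, and the length offset 716 and 362. Limma gave 359 and 1049 on log2(FPKM + 1), and 352 and 1013 on log2(FPKM + 0.1). Calls higher over all genes were 348 with quantile normalization, 515 with the replicate block and 379 with the length and GC offset. They were 365 without liraglutide replicate 2 and model replicate 3 together, and 344 to 662 over single omissions. With no filter they were 583 of 17484 genes tested. The calls over all genes thus fell in most settings where those of the import genes fell.

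Only genes that were never called changed sign. With library totals the log2 differences became -0.033 (Dnajc15), -0.017 (Grpel2), -0.038 (Timm17a), -0.047 (Timm22), -0.076 (Timm29) and -0.049 (Timm9). In the same order, limma on log2(FPKM + 1) gave -0.032, -0.0077, -0.038, -0.041, -0.074 and -0.045, and on log2(FPKM + 0.1) gave -0.032, -0.0080, -0.038, -0.046, -0.077 and -0.051. Quantile normalization gave -0.017 (Dnajc15), -0.068 (Timm17a), 0.015 (Timm21), -0.0082 (Timm23) and -0.053 (Timm29). The length offset gave -0.048 (Dnajc15), -0.017 (Timm17a), 0.042 (Timm21) and -0.020 (Timm9), and with GC it gave 0.15 (Timm21) and 0.13 (Tomm70a). Timm21 was at 0.0079 with upper-quartile factors and 0.016 without both libraries. Timm29 was at -0.0023 with the 1 CPM filter, -0.00090 with the replicate block and -0.017 without both libraries. Over single omissions the range was -0.064 to 0.017 for Timm21, -0.0093 to 0.19 for Tomm34, -0.022 to 0.031 for Timm29, -0.030 to 0.094 for Timm9, -0.0029 to 0.056 for Timm22 and -0.0049 to 0.13 for Grpel2. The cause was not tested. Over single genes and alternatives, 628 values kept direction and side of the threshold, 73 lost the call, 9 gained it and 46 changed sign. With 4 libraries a group and a common biological coefficient of variation of 13.7%, the smallest import gene change called was 1.10-fold (Pmpca).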

Other observations

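Genes around the import machinery were read from lists written with earlier results of these data known, so their counts support no direction independently. Over all genes tested, 5.45% rose and the median log2 fold change was -0.012. Of 20 accessory genes of import, folding and maturation, 4 rose, or 20%, and none fell (edgeR adjusted p under 0.05): Hspe1, the co-chaperonin of the matrix, at 1.23-fold, Dnlz, a helper of the motor's Hsp70, at 1.23-fold, Dnajc11, a partner of the SAM and cristae complexes, at 1.12-fold, and Oxa1l, the insertase of the inner membrane, at 1.14-fold (edgeR adjusted p = 0.0218, 0.0231, 0.0481 and 0.0497). Their median log2 fold change was 0.10. Of 15 cytosolic chaperones and delivery factors, 12 had a positive log2 fold change and the median was 0.063. Of 7 MICOS genes, which hold the cristae junctions, Micos10 and Micos13 rose by 1.14-fold each, or 28.6% (edgeR adjusted p = 0.028 and 0.0362). Chchd3, of the same complex, was next at 1.12-fold without passing (edgeR adjusted p = 0.0515).

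Of 19 tested substrates of the disulfide relay, 8 rose, or 42.1%, and none fell, with a median log2 fold change of 0.23. Their median length was 831 bases, and of all tested genes of 206 to 1389 bases 21.9% rose. The smallest adjusted p belonged to the complex I subunit Ndufb7 (1.28-fold, edgeR adjusted p = 0.00234), the cristae protein Chchd10 (1.27-fold, 0.00278) and the superoxide dismutase Sod1 (1.24-fold, 0.00806); the others were Cox17, Ndufa8, Uqcrh, Chchd2 and Chchd5. Of 40 tested complex I subunits, 30 rose, or 75%, with a median of 0.29 and a median length of 772.5 bases, in that same length class. They were led by Ndufb8 (1.40-fold, edgeR adjusted p = 0.000569), Ndufb11 (1.32-fold, 0.00101) and Ndufs7 (1.39-fold, 0.00114). Of 78 mitochondrial ribosomal protein genes, 22 rose, or 28.2%, with a median of 0.16. Their median length was 1412.5 bases, close to the edge between 2 length classes. Of all tested genes, 21.9% rose in the class of 206 to 1389 bases and 9.96% in that of 1390 to 1951 bases. The smallest adjusted p belonged to Mrps24 (1.45-fold, edgeR adjusted p = 0.00197), Mrpl23 (1.32-fold, 0.00278) and Mrpl28 (1.32-fold, 0.00409). Of 1526 other tested genes with the GO term mitochondrion, 239 rose and 51 fell, 15.7% higher, with a median of 0.075, led by Ndufb8, the muscle cytochrome oxidase subunit Cox6a2 (1.34-fold, edgeR adjusted p = 0.00101) and Ndufb11. The difference between these lists and the import genes was not tested.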
